A study of Homo sapiens with 18 samples.

Results

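Epithelial cells move salt and water through a small set of membrane channels, and the mRNA of 10 such genes was followed in MCF10A cells that had lost CBFB or RUNX1. The 10 genes were SCNN1A, SCNN1B, SCNN1G, ANO1, CLCA2, CLCA4, CFTR, KCNN4, KCNJ15 and AQP3, out of 19401 genes listed in at least 1 of 3 comparisons of knockout with wild type (WT). They were found by gene symbol and joined between comparisons by Entrez identifier. The set was chosen by the fold changes of the same comparisons, since several of its genes were known to be changed in them. The fold changes are therefore given as a description, without a test.

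The epithelial sodium channel, ENaC, is built from an alpha, a beta and a gamma subunit encoded by SCNN1A, SCNN1B and SCNN1G, and it lets sodium enter across the apical membrane of absorbing epithelia. Chloride leaves secreting epithelia through the calcium-activated channel ANO1, also called TMEM16A, and through the cAMP-activated channel CFTR, while CLCA2 and CLCA4 belong to a family of proteins that modulate calcium-activated chloride currents. The potassium channels KCNN4 and KCNJ15 help to hold the membrane voltage that drives these ions, and AQP3 is an aquaglyceroporin that passes water and glycerol. RUNX1 is a transcription factor that binds DNA, and CBFB is its partner protein, which does not bind DNA itself.

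MCF10A is a human line of mammary epithelial cells that does not form tumors. RNA-seq covered 18 samples in 5 groups. A CBFB knockout (CBFB KO, 3 samples) was set against WT cells (3 samples), and in a separate experiment 2 RUNX1 knockouts (KO1 and KO2, 4 samples each) were set against WT cells (4 samples). The knockouts were made by CRISPR-Cas9. Every group, WT included, grew in medium with 5% horse serum, 10 µg/ml insulin, 20 ng/ml epidermal growth factor, 500 ng/ml hydrocortisone and 100 ng/ml cholera toxin, at passages below 30. Per the submitters' design text, CBFB KO was 1 clone and KO1 and KO2 were 2 RUNX1 clones, grown from single-cell colonies, so that the loss of the gene and the history of a clone cannot be told apart. Samples of a group are not described as separate cultures, and their spread may be technical. KO1 and KO2 were compared with the same 4 WT libraries, so their values are set side by side and no agreement between them is counted as a result.

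The values came from 3 deposited tables that give, for each gene, the mean normalized count over the libraries compared, the log2 fold change of knockout minus WT and its standard error (SE). No value per library and no library depth was analysed here. For each gene the WT and knockout levels that the mean and the fold change imply were computed, in normalized counts. In bulk RNA, fewer cells that express a gene and less mRNA per cell cannot be told apart. The basal keratin KRT5 had means of 87894 to 101688 and EPCAM means of 2131 to 2981, while leukocyte and endothelial markers had means of at most 2.49. Summed means of luminal markers were 535 to 568 and of fibroblast markers 705 to 921. Of the 4 fibroblast markers COL3A1 is not listed, COL1A1 was higher in the 3 knockouts by 1.40, 1.75 and 1.36 on the log2 scale, PDGFRA had -0.05, -0.07 and -0.35, and PDGFRB had -0.27, -0.05 and 0.00. Of the 5 basal markers KRT14 was higher by 2.97 in CBFB KO and 2.95 in KO1 and is not listed for KO2. KRT17 had 0.57, 0.69 and 1.27, TP63 had 0.76, 1.08 and 0.55, ITGB4 had 0.63, 0.78 and 0.55, and KRT5 had -0.27, -0.24 and -0.26. Their part in the results on channel genes was not tested. CBFB mRNA was lower by 4.88 on the log2 scale in CBFB KO (log2 fold change -4.88, SE 0.14), whereas RUNX1 mRNA was 0.54 (SE 0.09) and 0.46 (SE 0.13) higher in KO1 and KO2 and cannot check those labels.

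Genes were called changed where the deposited adjusted p-value was below 0.05 and the level differed 2-fold or more, as the study did. Of the 10 channel genes, the tables for CBFB KO, KO1 and KO2 listed 8, 9 and 10, of which 7, 8 and 8 had an adjusted p-value. In CBFB KO, 3 channel genes were called lower and 0 higher, where 1.26% and 1.72% of all genes tested were called lower and higher. In KO1, 4 were called lower and 2 higher (1.57% and 3.36% of all genes), and in KO2, 4 were called lower and 1 higher (1.58% and 3.9% of all genes). By the adjusted p-value alone, CBFB KO had 3 lower and 0 higher (7.97% and 11.7% of all genes), KO1 had 5 lower and 2 higher (19.9% and 19.7%), and KO2 had 5 lower and 1 higher (6.08% and 8.76%). Since the genes were selected on these contrasts, nothing is read from these shares. SCNN1B, SCNN1G and ANO1 were the genes called lower in all 3 tables, KCNJ15 was called lower in both RUNX1 clones, AQP3 was called higher in both clones, and CLCA2 was called higher in KO1 alone.

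**Figure D1:**
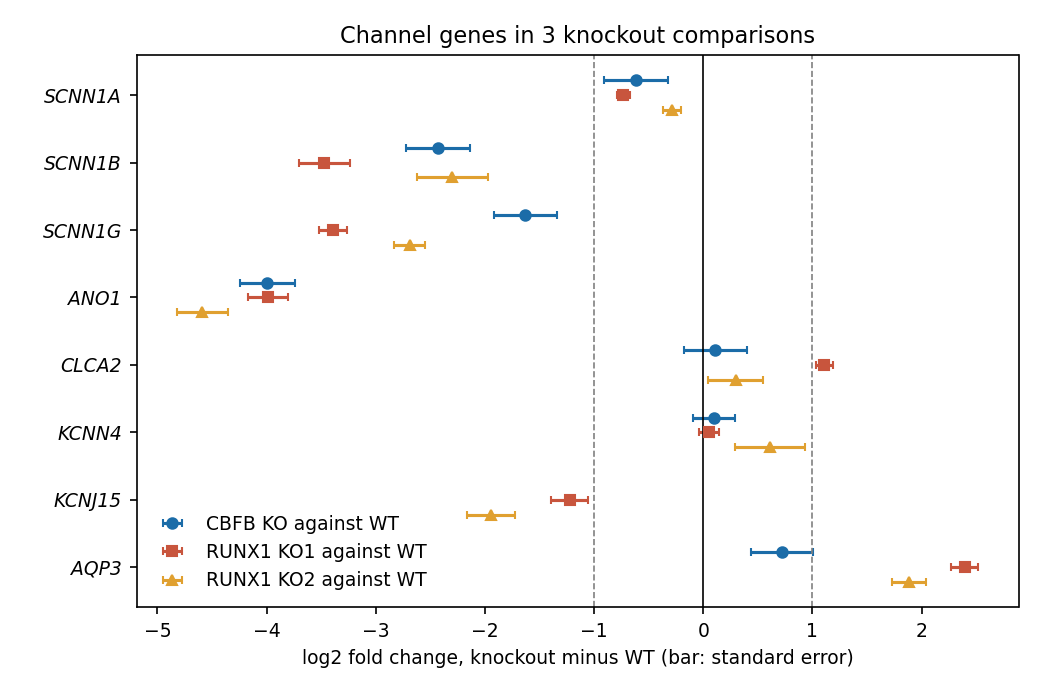
Log2 fold change of knockout minus WT (horizontal axis) for the 8 channel genes with an adjusted p-value in at least 1 table, with the standard error as a bar. Circles show CBFB KO (3 against 3 libraries), squares RUNX1 KO1 and triangles RUNX1 KO2 (4 against the same 4 libraries). Dashed lines mark a fold change of 2. ANO1 lies at -3.98 to -4.59 in all 3 comparisons, while AQP3 lies at 0.72 in CBFB KO and at 2.39 and 1.89 in the RUNX1 clones.

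The stretches of DNA just before the start sites of ANO1 and SCNN1B, which were lower in all 3 comparisons, of AQP3, which was called higher in both RUNX1 clones, and of CLCA2, which was called higher in KO1, are shown because they let the base composition of the start regions be compared. Each is the 250 bases before the start, 5′ to 3′ on the gene's strand, from RefSeq on GRCh38.p14, with capitals marking the GC box letters GGGCGG and the TATA box letters TATAAA on either strand.
ANO1 (chr11:69985657-69985906, plus strand): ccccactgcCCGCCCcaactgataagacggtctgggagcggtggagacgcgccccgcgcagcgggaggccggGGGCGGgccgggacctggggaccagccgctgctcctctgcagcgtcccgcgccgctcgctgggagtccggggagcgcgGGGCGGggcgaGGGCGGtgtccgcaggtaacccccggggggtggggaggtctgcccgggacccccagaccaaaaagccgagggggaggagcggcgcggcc
SCNN1B (chr16:23302052-23302301, plus strand): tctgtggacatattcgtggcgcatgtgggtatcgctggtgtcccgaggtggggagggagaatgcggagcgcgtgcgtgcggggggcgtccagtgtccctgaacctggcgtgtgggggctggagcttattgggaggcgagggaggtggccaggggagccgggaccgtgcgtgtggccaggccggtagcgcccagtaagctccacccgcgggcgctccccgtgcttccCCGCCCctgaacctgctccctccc
AQP3 (chr9:33447594-33447843, minus strand): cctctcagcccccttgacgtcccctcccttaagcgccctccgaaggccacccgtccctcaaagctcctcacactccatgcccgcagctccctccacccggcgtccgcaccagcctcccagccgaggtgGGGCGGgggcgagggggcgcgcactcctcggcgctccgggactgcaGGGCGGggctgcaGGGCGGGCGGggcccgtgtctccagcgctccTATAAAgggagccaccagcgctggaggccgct
CLCA2 (chr1:86423921-86424170, plus strand): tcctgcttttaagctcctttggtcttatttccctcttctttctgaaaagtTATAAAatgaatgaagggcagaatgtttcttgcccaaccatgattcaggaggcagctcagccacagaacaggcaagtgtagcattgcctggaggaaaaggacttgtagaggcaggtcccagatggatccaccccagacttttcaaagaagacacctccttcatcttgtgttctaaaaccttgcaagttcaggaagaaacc
The upstream bases of ANO1 were 78.0% G or C with 30 CpG dinucleotides, those of AQP3 73.6% with 23, and those of SCNN1B 70.0% with 22. CLCA2 had 44.8% G or C and 0 CpG. Upstream bases of other channel genes, not printed here, were at hand too. KCNJ15, called lower in both RUNX1 clones, had 60% with 6 CpG, and KCNN4 had 60% with 5. CFTR had 61.2% with 11 and CLCA4 30.4% with 2. Over all 35116 RefSeq windows the medians were 58.0% and 11.

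RefSeq start windows were at hand for 8 of the 10 genes, all but SCNN1A and SCNN1G. Each window of 250 bases before to 50 after the start was searched for the RUNX core letters TGTGGT or TGCGGT on both strands. These letters were in 0 of the 8 windows, and in 19.6% of all windows. TGTGGT alone was in 0 of 8 and in 13.1% of all windows. The absence says only that the letters are not in these windows. The GC box letters GGGCGG were in 5 of the 8 windows (ANO1, SCNN1B, AQP3, KCNN4 and KCNJ15) and in 45.0% of all windows, and the TATA box letters TATAAA were in 3 of 8 (AQP3, CLCA2 and CLCA4) and in 11.5% of all windows. The last 2 motifs were chosen after the sequences had been seen. Of the genes with GC box letters, ANO1 and SCNN1B were called lower in every comparison. KCNJ15 was called lower and AQP3 higher in the RUNX1 clones, and KCNN4 was not called in any table. Whether the letters bear on the direction of a change was not tested.

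Among the ENaC subunits, beta and gamma were far lower in every knockout, and alpha was lower by less than 2-fold. SCNN1A, which encodes the alpha subunit on which the channel's activity depends, had the highest level of the 3. Its implied level went from 3015 normalized counts in WT to 1967 in CBFB KO, from 3800 to 2290 in KO1 and from 3585 to 2945 in KO2. This left 65.3% (95% interval 44.0 to 96.9) of the WT level in CBFB KO, 60.3% (55.7 to 65.2) in KO1 and 82.2% (73.4 to 91.9) in KO2. SCNN1A was not called changed in any table, because the fold change stayed under 2 in each and the adjusted p-value in CBFB KO was also above the threshold.

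SCNN1B encodes the beta subunit, whose cytoplasmic tail carries a motif through which the channel is removed from the membrane. It was the weakest of the 3, with an implied WT level of 71.2 normalized counts in the CBFB experiment and 116 and 108 in the RUNX1 tables. In the knockouts 13.2, 10.4 and 21.9 remained in CBFB KO, KO1 and KO2. The log2 fold changes were -2.43 (SE 0.29), -3.47 (SE 0.23) and -2.30 (SE 0.33), which left 18.5%, 9.02% and 20.3% of WT. The beta subunit was called lower in each comparison.

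SCNN1G encodes the gamma subunit, which proteases cut to activate the channel. It went from 612 to 198 normalized counts in CBFB KO, from 701 to 66.8 in KO1 and from 662 to 103 in KO2. The log2 fold changes were -1.63 (SE 0.29), -3.39 (SE 0.13) and -2.69 (SE 0.14). The share of the WT level that remained was 32.3% (95% interval 21.8 to 48.0) in CBFB KO, 9.53% (8.02 to 11.3) in KO1 and 15.5% (12.8 to 18.8) in KO2.

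Because alpha changed less than beta and gamma, the balance of the subunit mRNAs moved. Per kilobase of transcript, the implied level of SCNN1A was 31.6 times that of SCNN1B in the WT of the CBFB experiment and 111 times in CBFB KO. The same ratio went from 24.5 to 164 in KO1 and from 24.8 to 100.2 in KO2. Against SCNN1G, the ratio went from 4.96 to 10.0 in CBFB KO, from 5.46 to 34.5 in KO1 and from 5.46 to 28.9 in KO2. The ratios are of mRNA levels, have no error in the tables and say nothing of the subunits at the membrane.

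ANO1 was the most reduced of the channel genes in each of the 3 comparisons. It encodes the pore of the calcium-activated chloride channel of secretory epithelia, and its gene lies on 11q13 beside CCND1. Its implied level went from 182 to 11.4 normalized counts in CBFB KO, from 378 to 23.9 in KO1 and from 358 to 14.9 in KO2. The log2 fold changes were -3.99 (SE 0.25), -3.98 (SE 0.18) and -4.59 (SE 0.23). What remained was 6.29% (95% interval 4.46 to 8.85), 6.32% (4.93 to 8.09) and 4.15% (3.02 to 5.71) of the WT level.

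CLCA2, a CLCA protein that is cleaved and stays at the cell surface, was abundant and was not lower in any knockout. It was 2.16-fold higher in KO1 (95% interval 1.94 to 2.40), going from 1113 to 2400 normalized counts. In CBFB KO it was 1046 in WT and 1129 in the knockout, and in KO2 1054 and 1293, so that the folds of 1.08 (95% interval 0.728 to 1.60) and 1.23 (0.876 to 1.72) had intervals on both sides of 1. CLCA2 was called in 1 of the 3 tables.

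CLCA4 and CFTR were at the limit of what was listed. CLCA4 had means of 0.254, 0.497 and 0.194 normalized counts in the CBFB, KO1 and KO2 tables and no adjusted p-value. CFTR was listed in the KO2 table alone, with a mean of 0.0970, the lowest of that table, where genes under a mean of 1.03 were not tested. A change of either gene was not detectable at these means, and no fold change is given. Of the chloride channels ANO1 and CFTR, ANO1 was the one that could be measured.

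The potassium channels moved unalike. KCNN4, the calcium-activated channel KCa3.1, had means of 1113, 1159 and 1436 normalized counts and was not called in any table, with log2 fold changes of 0.10 (SE 0.20), 0.06 (SE 0.09) and 0.61 (SE 0.32). KCNJ15, the inward rectifier Kir4.2, is not listed in the CBFB table and was not analysed there. In KO1 it went from 113 to 48.6 normalized counts and in KO2 from 107 to 27.8, which left 42.8% (95% interval 34.1 to 53.7) and 25.9% (19.3 to 34.9) of the WT level.

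AQP3 was the channel gene with the largest increase in the RUNX1 clones. It went from 109 to 574 normalized counts in KO1, a 5.25-fold increase (95% interval 4.42 to 6.24), and from 101 to 372 in KO2, a 3.70-fold increase (2.99 to 4.58). In CBFB KO it went from 224 to 370, which is 1.65-fold (1.12 to 2.43). It was not called there, because the fold change stayed under 2 and the adjusted p-value was slightly above the threshold. The 2 experiments were normalized separately, so levels across them are given side by side only.

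**Figure D2:**
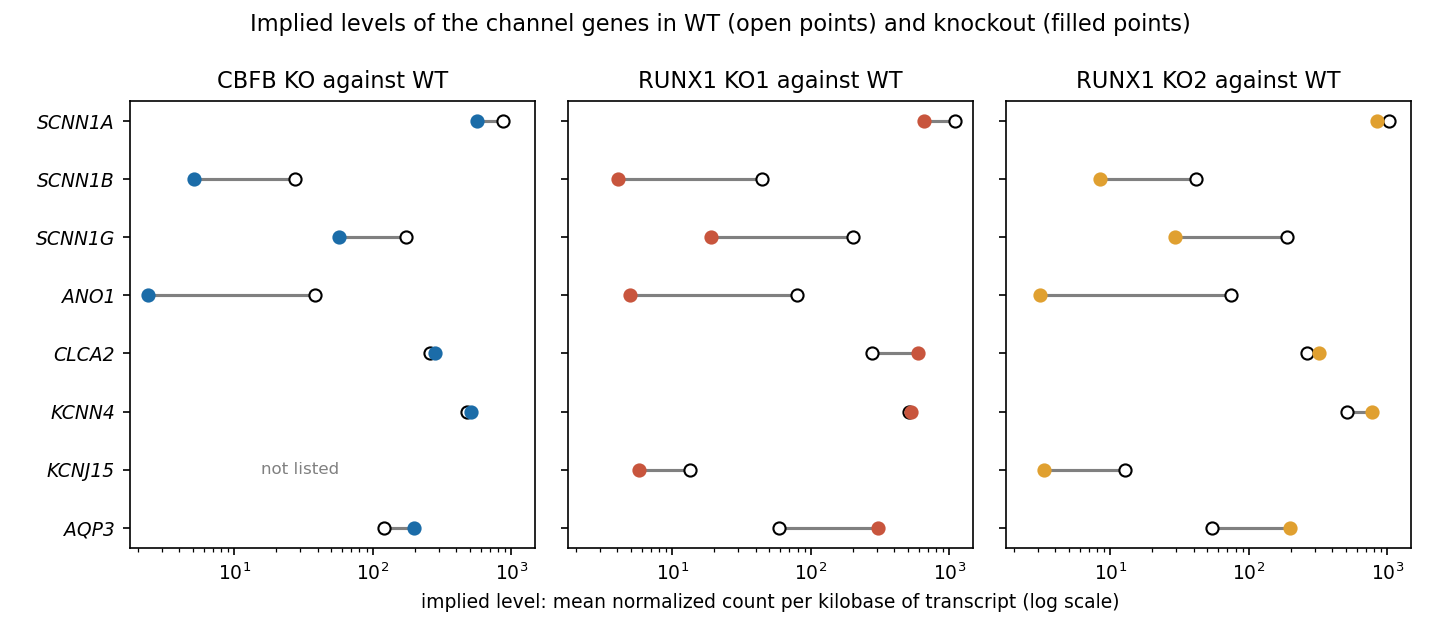
Implied levels of 8 channel genes in normalized counts per kilobase of transcript (log scale), with WT as open points and the knockout as filled points, 1 panel per comparison. The levels follow from the deposited mean and fold change and carry no error bars. SCNN1A has the highest level in every panel, SCNN1B and ANO1 drop below 10 per kilobase in all 3 knockouts, and AQP3 moves up.

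Ordered by implied level per kilobase in the WT of the RUNX1 experiment (KO1 table), SCNN1A came first at 1092 normalized counts per kilobase, followed by KCNN4 at 506, CLCA2 at 276 and then SCNN1G. ANO1 followed at 78.9, AQP3 at 58.4, SCNN1B at 44.6 and KCNJ15 at 13.5. In KO1 the order changed to SCNN1A at 658, CLCA2 at 596, KCNN4 at 527 and AQP3 at 307, with SCNN1G at 19.1, KCNJ15 at 5.78, ANO1 at 4.98 and SCNN1B at 4.02. AQP3 passed SCNN1G, and ANO1 fell below KCNJ15. The tables hold no spread of a level within a group, so whether neighbours in these orders differ was not tested.

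The precision of these values differed between the experiments. In the CBFB table the SEs of SCNN1A (0.29), SCNN1G (0.29), CLCA2 (0.29) and AQP3 (0.29) exceeded those of 99.7%, 99.5%, 99.6% and 99.3% of well-expressed genes (mean 100 or more), whose median SE was 0.12. In the KO1 table the SE of SCNN1A (0.06) was above that of only 0.738% of such genes and that of CLCA2 (0.08) above 12.2%. The SEs of these 4 genes in the CBFB table were thus near the largest it holds for well-expressed genes. Weak genes had like SEs in CBFB KO, such as TMPRSS4 (0.29 at a mean of 12.1) and KCNMA1 (0.29 at a mean of 10.8). Whether spread between libraries or shrinkage of the deposited fold changes toward 0 set these SEs was not tested. Which libraries carried any spread cannot be read from the tables. The WT level implied by the KO1 table over that implied by the KO2 table, which share those libraries, had a median log2 ratio of 0.08 (SD 0.03) over 10174 genes. SCNN1A, SCNN1B, SCNN1G, ANO1, CLCA2, KCNJ15 and AQP3 had ratios of 0.08 to 0.12, KCNN4 had 0.00047, and CLCA4, whose means were under 0.5, had 1.31.

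The fold changes of the 2 experiments, which share no library, are set side by side as differences of log2 fold change, CBFB KO minus clone. Like the fold changes they were selected on, these differences are a description without a test. ANO1 had -0.01 (SE 0.31) against KO1 and 0.60 (SE 0.34) against KO2. SCNN1A had 0.11 (SE 0.30) and -0.33 (SE 0.30).

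For the other ENaC subunits, SCNN1G had 1.76 (SE 0.32) against KO1 and 1.06 (SE 0.32) against KO2, and SCNN1B had 1.04 (SE 0.37) and -0.14 (SE 0.44). A positive difference for these genes means a smaller deposited reduction in CBFB KO. AQP3 had -1.67 (SE 0.31) and -1.16 (SE 0.33), where a negative difference means a smaller deposited increase in CBFB KO. CLCA2 had -0.998 (SE 0.30) and -0.19 (SE 0.38), and KCNN4 had 0.04 (SE 0.22) and -0.51 (SE 0.37). The experiment, the clone and the gene lost cannot be told apart in these values.

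A wider set of 109 channel and transport genes was followed beside the 10, in lists of ENaC regulators, other chloride channels, CFTR partners, other potassium channels, other aquaporins, and the sodium pump with cotransporters. Of these, 75, 86 and 81 were tested in the CBFB, KO1 and KO2 tables. In CBFB KO 3 fell and 1 rose, in KO1 3 fell and 3 rose, and in KO2 4 fell and 6 rose. This is 4.0% and 1.33%, 3.49% and 3.49%, and 4.94% and 7.41% of those tested, beside the shares of all genes given above. Without the fold threshold, CBFB KO had 10 that fell and 14 that rose, which is 13.3% and 18.7% of those tested beside 7.97% and 11.7% of all genes. KO1 had 15 and 25, which is 17.4% and 29.1% beside 19.9% and 19.7%, and KO2 had 8 and 15, which is 9.88% and 18.5% beside 6.08% and 8.76%.

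Among 19 genes that include the delta subunit SCNN1D and regulators of ENaC, 1 fell in each table, 0, 1 and 2 rose, and the median log2 fold changes were 0.10, 0.23 and 0.04 (all genes tested: -0.01, 0.00 and 0.02). The one that fell in all 3 was TSC22D3, which encodes GILZ, a glucocorticoid-induced protein known to raise ENaC at the cell surface. It had log2 fold changes of -1.74 (SE 0.24; adjusted p = 2.41e-11), -1.81 (SE 0.13; adjusted p = 1.51e-45) and -1.34 (SE 0.15; adjusted p = 4.64e-16). TMPRSS4, a membrane serine protease that can activate ENaC, rose 3.51-fold in KO1 (adjusted p = 2.16e-16) and 2.73-fold in KO2 (adjusted p = 9.4e-06), and was 1.43-fold WT (SE 0.29 on the log2 scale; adjusted p = 0.216) in CBFB KO. SCNN1D itself was weak, with a mean of 10.6 in KO2, where it rose (log2 fold change 1.49, SE 0.38; adjusted p = 0.00147).

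Other proteases of ENaC and their inhibitors changed by less than 2-fold or did not pass the test, and were named after their values were seen. PRSS8 (prostasin), ST14 (matriptase), FURIN and the inhibitor SPINT1 were each higher in all 3 tables with adjusted p-values under the threshold. SPINT2, the other inhibitor on the list, was higher in CBFB KO (log2 fold change 0.64, SE 0.08; adjusted p = 9.87e-13) and did not pass in KO1 (0.22, SE 0.11; adjusted p = 0.0973) or KO2 (0.50, SE 0.23; adjusted p = 0.153). ST14 had log2 fold changes of 0.83 (SE 0.08) in CBFB KO, 0.46 (SE 0.06) in KO1 and 0.63 (SE 0.18) in KO2. The kinase SGK1, which holds ENaC at the membrane, had log2 fold changes of 0.37 (SE 0.16), -0.06 (SE 0.13) and -0.08 (SE 0.28), and the ubiquitin ligase NEDD4L, which removes ENaC, had -0.21 (SE 0.13), -0.23 (SE 0.07) and -0.15 (SE 0.14). Of these 6 values the one with an adjusted p-value under the threshold was NEDD4L in KO1 (adjusted p = 0.00224).

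Of 31 other anoctamins and chloride channels, 21, 23 and 23 were tested. In CBFB KO 1 fell and 0 rose, in KO1 0 fell and 1 rose, and in KO2 1 fell and 1 rose, with medians of 0.00, 0.16 and 0.18. ANO9, an anoctamin best known as a lipid scramblase, was called in the direction opposite to ANO1, and rose 2.17-fold in KO1 (adjusted p = 2.12e-27) and 2.46-fold in KO2 (adjusted p = 4.58e-08), and was 1.39-fold higher in CBFB KO (adjusted p = 0.000262), under the fold threshold. CLCN4, an endosomal chloride-proton exchanger, was the one that fell in CBFB KO (log2 fold change -1.53, SE 0.19; adjusted p = 1.26e-13), with -0.98 (SE 0.16) and -0.89 (SE 0.18) in the clones. None of the 8 CFTR partners was called in any table at both thresholds, while 1 fell and 1 rose in CBFB KO, 1 fell and 2 rose in KO1, and 0 fell and 1 rose in KO2 by the adjusted p-value alone. Their median log2 fold changes were -0.09, 0.11 and 0.14. EZR, the most abundant of them and a linker of membrane proteins to actin, had log2 fold changes of -0.17 (SE 0.10), -0.07 (SE 0.12) and -0.18 (SE 0.15).

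Of 24 other potassium channels, 9, 15 and 12 were tested, 1, 2 and 2 fell and 0, 0 and 1 rose, with medians of -0.07, -0.09 and 0.08. KCNK2, the mechanosensitive leak channel TREK-1, fell in all 3 (log2 fold changes -1.25, -1.08 and -1.19; adjusted p = 0.000232, 0.00101 and 0.00191) at means of 13.5 to 21.4. KCNMA1, the large-conductance calcium-activated channel, fell in KO1 (-1.70, SE 0.30; adjusted p = 1.67e-07) and KO2 (-2.17, SE 0.36; adjusted p = 8.72e-08) and had -0.26 (SE 0.29; adjusted p = 0.612) in CBFB KO. These were far weaker than KCNN4, whose means were 1113 to 1436.

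Among 12 other aquaporins, 4, 7 and 5 were tested and 0 were called at either rule in any table, by the deposited DESeq2 test, so that AQP3 was the single aquaporin called. AQP3 belongs to the selected set and had means of 237 to 342. The other aquaporins had means of at most 44.3, where a change is harder to detect. MIP, the lens aquaporin and the most abundant of the others in the CBFB table at a mean of 40.2, had log2 fold changes of -0.34 (SE 0.25), -0.02 (SE 0.22) and -0.20 (SE 0.28). The medians of the other aquaporins were -0.31, 0.15 and 0.30. Of 15 genes of the sodium pump and of cotransporters, 14 were tested in each table, 0 fell, and 1, 1 and 2 rose, with medians of 0.19, 0.05 and 0.00. SLC12A7, the potassium-chloride cotransporter KCC4, rose 2.82-fold in CBFB KO (adjusted p = 2.37e-15), 4.35-fold in KO1 (adjusted p = 3.98e-71) and 4.88-fold in KO2 (adjusted p = 4.32e-75).

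**Figure D3:**
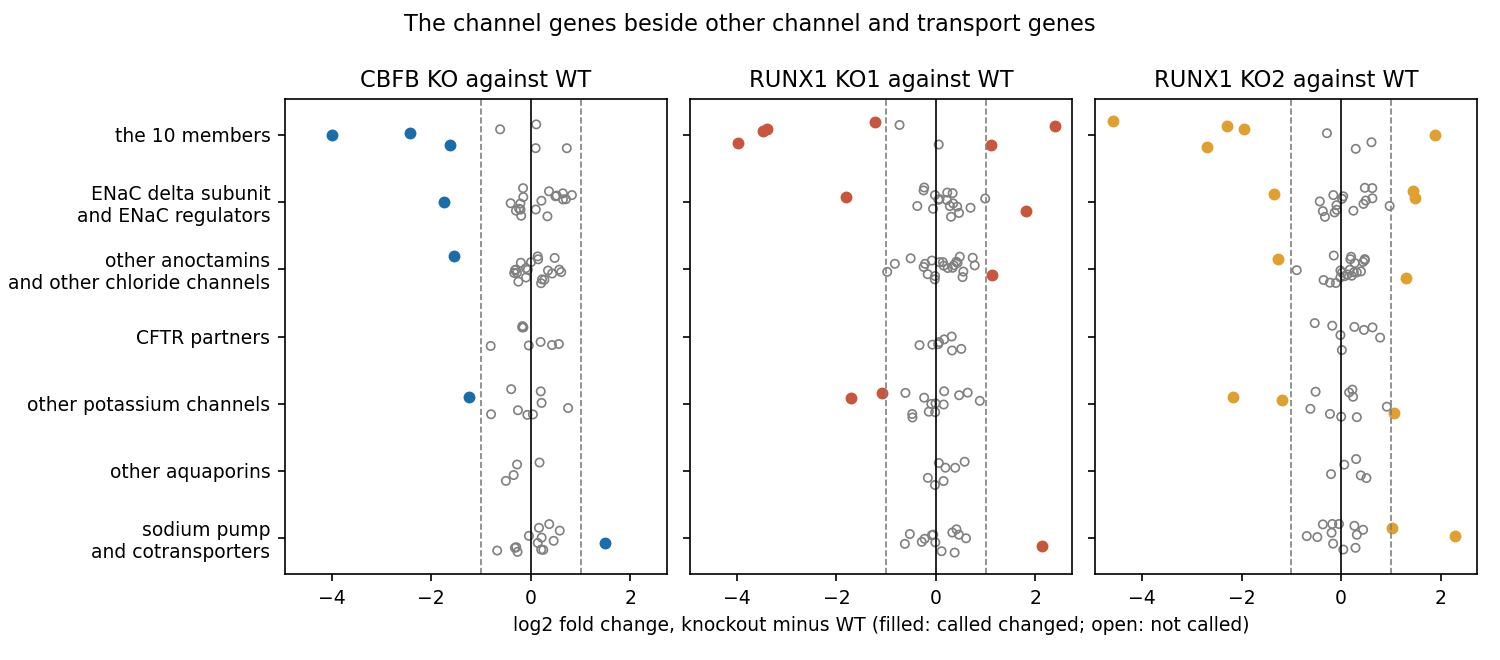
Log2 fold change of knockout minus WT for each gene with an adjusted p-value, with the 10 channel genes in the top line and 6 lists of other channel and transport genes under them, 1 panel per comparison. Filled points were called changed and open points were not, dashed lines mark a fold change of 2, and the vertical scatter within a line has no meaning. Most open points lie between the dashed lines, and no point of the other lists lies as low as ANO1 at -3.98 to -4.59.

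Differences between the CBFB response and a clone's response were tested for the list genes by a normal test of the difference over its SE, adjusted over all genes. The response to CBFB loss differed from that of KO1 in 9.84% of all genes and from that of KO2 in 2.9%. Of the 75 list genes tested, 12 differed from KO1 and 4 from KO2. Those 4 were ANO9, KCNMA1, SLC12A7 and STK39. Both tests use the same CBFB libraries and the same RUNX1 WT libraries, so the counts are not independent of each other. The KO2 table was the least precise, with a median SE of 0.21 for well-expressed genes (mean 100 or more). That median was 0.10 for the KO1 table and 0.12 for the CBFB table. A difference from KO2 was thus harder to detect, and whether the CBFB response was closer to KO2 than to KO1 was not tested.

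The genes next to the channel genes were examined because SCNN1G and SCNN1B lie side by side on chromosome 16 and were both lower. Taking the nearest 2 listed genes on each side of each member, 31, 30 and 30 neighbours were listed and 26, 28 and 28 tested. Of these 0, 1 and 1 fell and 0, 0 and 1 rose, counts near the shares of all genes that fell (1.26%, 1.57% and 1.58%) and rose (1.72%, 3.36% and 3.9%). HS3ST2, a heparan sulfate sulfotransferase that lies beyond USP31 from SCNN1G, fell in KO1 (log2 fold change -1.66, SE 0.31; adjusted p = 1.16e-06) and KO2 (-2.27, SE 0.41; adjusted p = 6.7e-07), at means of 6.12 and 5.63, and was not tested in CBFB KO at a mean of 0.635. USP31, between them, had log2 fold changes of 0.03 (SE 0.09), -0.07 (SE 0.10) and -0.18 (SE 0.12), and COG7, beyond SCNN1B, had -0.09 (SE 0.11), -0.10 (SE 0.13) and 0.01 (SE 0.18). The lower levels at this locus were thus seen in SCNN1G, SCNN1B and, in the clones, HS3ST2, with USP31 between them near its WT level.

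Around ANO1, CCND1, LTO1, FADD and PPFIA1 all had log2 fold changes between -0.19 and 0.17. CCND1, the cyclin gene of the same chromosome band, had -0.19 (SE 0.12), -0.07 (SE 0.10) and 0.17 (SE 0.16). Next to KCNN4, LYPD5 rose in KO2 (log2 fold change 1.14, SE 0.36; adjusted p = 0.0155), at a mean of 10.7. NFX1, a neighbour of AQP3, was lower in all 3 tables at log2 fold changes of -0.70, -0.74 and -0.82 (adjusted p = 2.28e-11, 1.51e-15 and 1.7e-09), under the fold threshold and opposite in direction to AQP3. CLCA4, beside CLCA2, could not be tested.

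**Figure D4:**
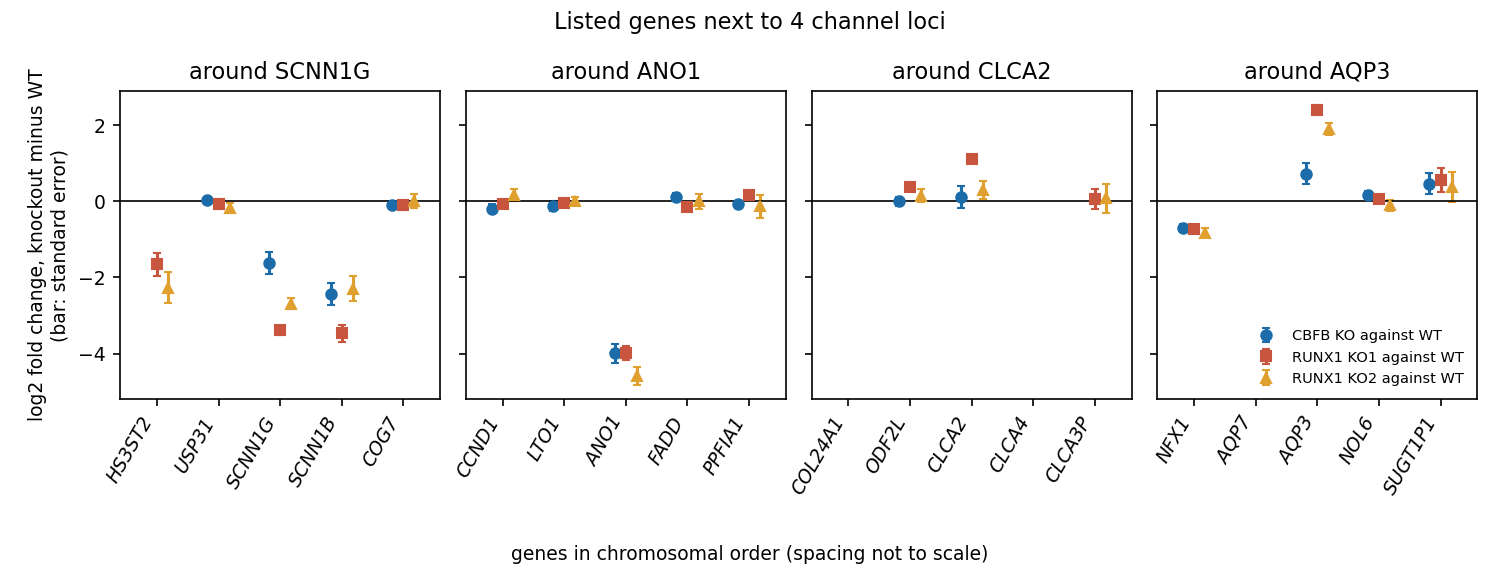
Log2 fold change of knockout minus WT, with the standard error as a bar, for channel genes and the 2 nearest listed genes on each side at 4 loci, in chromosomal order. Circles show CBFB KO, squares RUNX1 KO1 and triangles RUNX1 KO2, and a gene without a point in a comparison had no adjusted p-value there or is not listed. ANO1 at -3.98 to -4.59 stands between genes near 0, and SCNN1G and SCNN1B are both low beside USP31 and COG7 near 0. HS3ST2, beyond USP31, is also low in the RUNX1 clones, at -1.66 in KO1 and -2.27 in KO2.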

How the data were processed

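RNA-seq of MCF10A cells was analysed from 3 tables of knockout against WT. Per the submitters' processing notes the tools were Trimmomatic, STAR and DESeq2 with build hg19, without versions. It is not known whether polyadenylated RNA was selected, as the kit in the labels does, or ribosomal RNA depleted, as in the methods. Strand use in counting is not given in the sources used here. The deposited mean of normalized counts per gene, treated as a signal, the deposited log2 fold change, its SE, the deposited test score and the deposited p-values with Benjamini-Hochberg adjustment are the authors' comparison output and were used because the tables hold 0 columns of samples. The score equalled the fold change over its SE to within 4.87e-07. A gene at the lowest mean of the CBFB table (COL24A1, 0.141) is listed at a log2 fold change of -0.01 (SE 0.08), as for values shrunk toward 0, and the size of any shrinkage in other genes was not tested. Matrices named in the sample labels were not used here. Values per library, depth and SD could not be given, so precision rests on the deposited SE.

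Genes without an adjusted p-value (under means of 3.37, 0.748 and 1.03) were not counted as tested, which left 14975, 16394 and 15636 genes. Implied WT and knockout levels were solved from the mean and the fold change, for 2 groups of equal size. Intervals are 95% normal intervals from the SE. Any shrinkage of the fold changes was not allowed for in the intervals, the implied levels, the shares of WT or the subunit ratios. Levels per kilobase used the longest protein-coding transcript in GENCODE release 29. Differences between CBFB KO and each clone were tested two-sided over their combined SE with Benjamini-Hochberg adjustment over all genes. Promoters and gene order came from RefSeq (GRCh38.p14), and python 3.11.15, numpy 2.4.6, pandas 2.3.3, scipy 1.17.1 and matplotlib 3.10.9 were used.

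The channel genes and all lists were chosen with earlier results of these data known. Named were the 10 channel genes, list genes called in the same direction in at least 2 of 3 tables (or else the list's most abundant gene in the CBFB table), and called neighbours; SCNN1D, CLCN4, PRSS8, ST14, FURIN, SPINT1, SGK1, NEDD4L, SPINT2, the neighbours USP31, COG7, CCND1, LTO1, FADD, PPFIA1 and NFX1 and, for differing responses, STK39 were chosen after their values were seen. Alternatives were a fold threshold of 4 or none, an adjusted p-value threshold of 0.01, adjustment over all listed genes, a mean of at least 100, and centring on the median.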

Additional observations from a re-analysis of the deposited data

Results flagged for a closer look

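Differences in log2 fold change, CBFB KO minus a RUNX1 clone, passed an adjusted p-value of 0.05 for these list genes, adjusted over all genes. The channel genes themselves were selected on these contrasts and are not included. Against KO1, TMPRSS4 had a difference of -1.29, KCNMA1 of 1.44, ANO9 of -0.64, SLC12A7 of -0.63, ANO8 of -0.60, WNK1 of -0.53, CLCN3 of -0.49 and GOPC of -0.48. STK39 differed by 0.48, SPINT2 by 0.42, ATP1B3 by 0.39 and ST14 by 0.36 from KO1. Against KO2, KCNMA1 differed by 1.91, SLC12A7 by -0.79, ANO9 by -0.82 and STK39 by 0.53. The tests against KO1 and KO2 share the CBFB libraries and the RUNX1 WT libraries. Any part of shrinkage of the deposited fold changes in these differences was not tested.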

How the results depend on the processing

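No paired analysis was possible because the comparison tables used here hold no values per library, and matrices named in the sample labels were not used here, so that no replicate could be left out either. Of 82 values under an alternative setting, 0 reversed in direction and 12 moved. The 41 for single channel genes were run only with fold changes centred on the median of well-expressed genes (mean 100 or more), and none moved. Those medians were 0.0013 for the CBFB table, -0.021 for the KO1 table and -0.0025 for the KO2 table. Shifts of this size could hardly move a value, so centring was no test of the single genes. The other values were counts of genes, which have no direction to reverse. With a mean of at least 100 required, the channel genes called changed were 1, 4 and 3 in CBFB KO, KO1 and KO2, against 3, 6 and 5. SCNN1B and, by table, ANO1 or KCNJ15 lie under that mean. With a fold threshold of 4, the counts were 2, 4 and 3. The falls from 6 to 4 in KO1 and from 3 to 2 in CBFB KO were not counted among the 12 that moved. Among the other channel and transport genes, a threshold of 4 left 0, 1 and 2 called in CBFB KO, KO1 and KO2 (against 4, 6 and 10). No fold threshold gave 24, 40 and 23, and a mean of at least 100 left 3, 3 and 4. The number of all genes whose response differed between CBFB KO and KO2 was 234 at a mean of at least 100, against 421, with fewer genes tested. Between CBFB KO and KO1 it was 1259, against 1470. CLCA4 and CFTR had means too low for an adjusted p-value.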
